A study of Mus musculus with 4 samples.

Results

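The nuclear genes for subunits of the mitochondrial respiratory chain and ATP synthase were followed in mouse fibroblasts labelled Zip13KO and in fibroblasts labelled WT. Members were chosen by gene symbol alone: Nduf genes of the a, b, c, s and v families for complex I, Sdha to Sdhd for complex II, Uqcr genes and Cyc1 for complex III, Cox4 to Cox8 genes for complex IV, and Atp5 genes for complex V. The patterns matched 81 of the 22180 genes on the arrays, with 33 in complex I, 4 in complex II, 9 in complex III, 17 in complex IV and 18 in complex V. Of these, 79 were protein-coding and 2 were pseudogenes (Uqcrh-ps1 and Atp5c1-ps), and 77 were counted as structural subunits or their isoforms after Ndufa4l2, a paralogue, and Cox7a2l, a factor that joins complexes into supercomplexes, were also set aside. Total RNA had been hybridised to 4 single-colour Affymetrix arrays, 2 of Zip13KO fibroblasts and 2 of WT fibroblasts, which the labels number as biological replicates. Zip13 is the protein of Slc39a13, a zinc transporter of the secretory pathway, and the study's stated interest was local zinc balance and the structure of the Golgi. The sources used here name no strain, age, tissue of origin or treatment. They do not say whether the replicates were separate animals or cultures, so the p-values cover the spread among 4 arrays, part of which may be technical.

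The respiratory chain passes electrons from NADH and succinate to oxygen and pumps protons across the inner mitochondrial membrane, and ATP synthase lets them flow back to make ATP. Complexes I, III, IV and V each combine nuclear-encoded subunits, made in the cytosol and imported, with a few subunits encoded by mitochondrial DNA, whereas complex II is wholly nuclear. Fibroblasts in culture use this chain beside a high rate of glycolysis, and several complex IV subunits have isoforms restricted to muscle, lung or testis.

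The arrays had median intensities between 94.5 and 96.1, and the arrays correlated at 0.994 within each group and at 0.983 to 0.985 across groups (Pearson's r over rows). Slc39a13 itself did not pass the test (0.04 log2 units, adjusted p = 0.82). It read 8.89 and 8.98 on the Zip13KO arrays, against 8.94 and 8.85 on the WT arrays. The positions of its probes and of the mutation are not known here, so this does not check the labels. Ndufs3 lies near it on chromosome 2, with 5 measured genes between them, and differed by 0.05. Of 11 fibroblast markers, 9 were brighter than the array median, taken over all 41345 rows, on 2 or more arrays, and Lum and Fap were dimmer. As bright were 13819 of all 22180 genes. So were 8 of 13 striated muscle, 3 of 7 adipocyte, 3 of 6 macrophage, 2 of 5 endothelial and 2 of 4 keratinocyte markers. The summed intensity of the fibroblast markers was 13972 to 14460 on the Zip13KO arrays and 17081 to 18169 on the WT arrays. Of the 11, 1 rose and 5 fell (54.5%), while 17.1% of all genes and 26.1% of the 13819 passed. None of 13 striated muscle, 7 adipocyte, 5 endothelial or 4 keratinocyte markers passed in limma (unadjusted p under 0.05 for 2, 1, 1 and 1 of them), and of 6 macrophage markers 1 rose and 1 fell. The part of these shifts in the results below was not tested, and in bulk RNA fewer cells of a type and less RNA per cell cannot be told apart.

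Respiratory chain genes differed little between the genotypes, and in both directions. With limma over all genes and Benjamini-Hochberg adjusted p under 0.05 as the threshold, 6 members rose and 7 fell in Zip13KO fibroblasts, which is 16% of the 81 members, while 17.1% of all genes passed. Over all genes 7.00% rose and 10.1% fell. Members are mostly bright, and of the 75 that were brighter than the array median on 2 or more arrays 17.3% passed, beside 26.1% of the 13819 such genes. No member differed by 0.5 log2 units or more, as 1039 genes (4.68%) and 7.43% of those brighter than the array median did. The largest difference, -0.39 for Atp5o, was reached or exceeded in size by 7.57% of all genes. Rows that name several genes are not among the members. One such row, for Ndufs6 and Ndufs6b, was at 0.50, and a second row with those names was at 0.11. The 95% interval of the difference lay wholly within 0.5 log2 units of 0 for 78 of 81 members, and over all of them the intervals ran from -0.55 to 0.48. The median difference was 0.02 over the members and -0.0034 over all genes.

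Arrays of the 2 genotypes did not overlap for 48 of the 81 members, 26 with both Zip13KO arrays above both WT arrays and 22 with both below. That is 59.3% of members, against 51.5% of all genes. Among those brighter than the array median the shares were 61.3% of members and 61.1% of genes. The median SD between the arrays of a group was 0.051 in Zip13KO and 0.051 in WT over the members, and 0.058 in Zip13KO and 0.053 in WT over all genes. With 2 arrays a group the smallest two-sided p of an exact permutation test is 0.33, so the calls rest on the spread that limma pools over genes. Further quantile normalization of the arrays moved the split of calls to 13 higher and 8 lower. A fit and adjustment over all 41345 rows of the table left 1 higher, Ndufs8, and 1 lower, Atp5o, and these were also the 2 of 13 that passed under each of the 13 alternative fits.

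**Figure D1:**
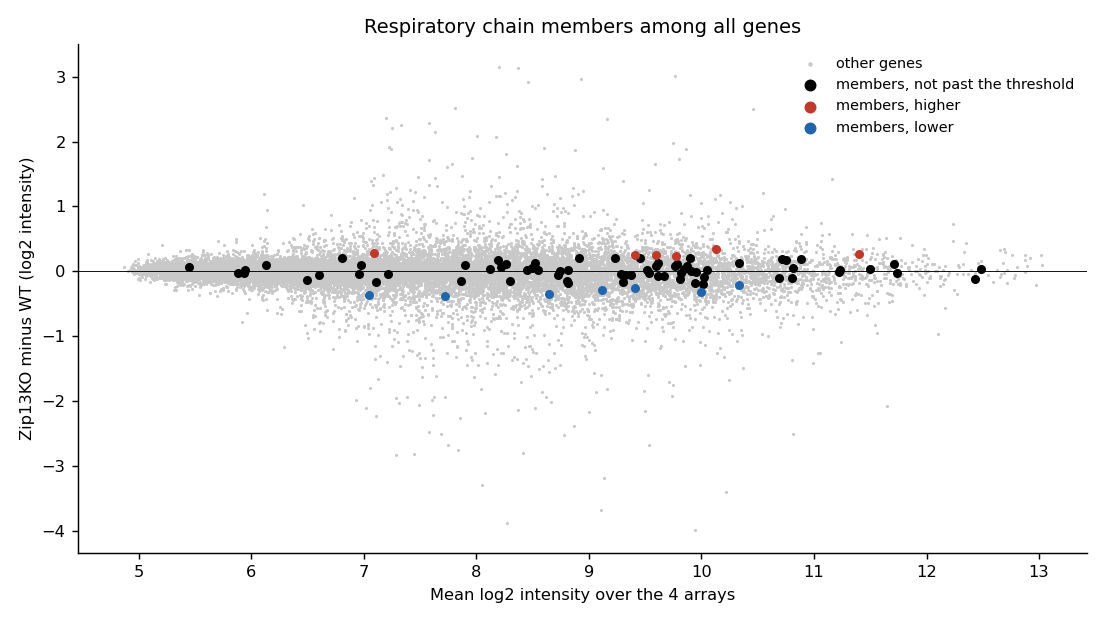
Difference between genotypes (Zip13KO minus WT, log2 intensity) against mean log2 intensity over the 4 arrays for each of 22180 genes, with the 81 members in black, red (higher) or blue (lower). The members stay between -0.39 and 0.34, inside a cloud whose extremes are -3.99 and 3.15.

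**Figure D2:**
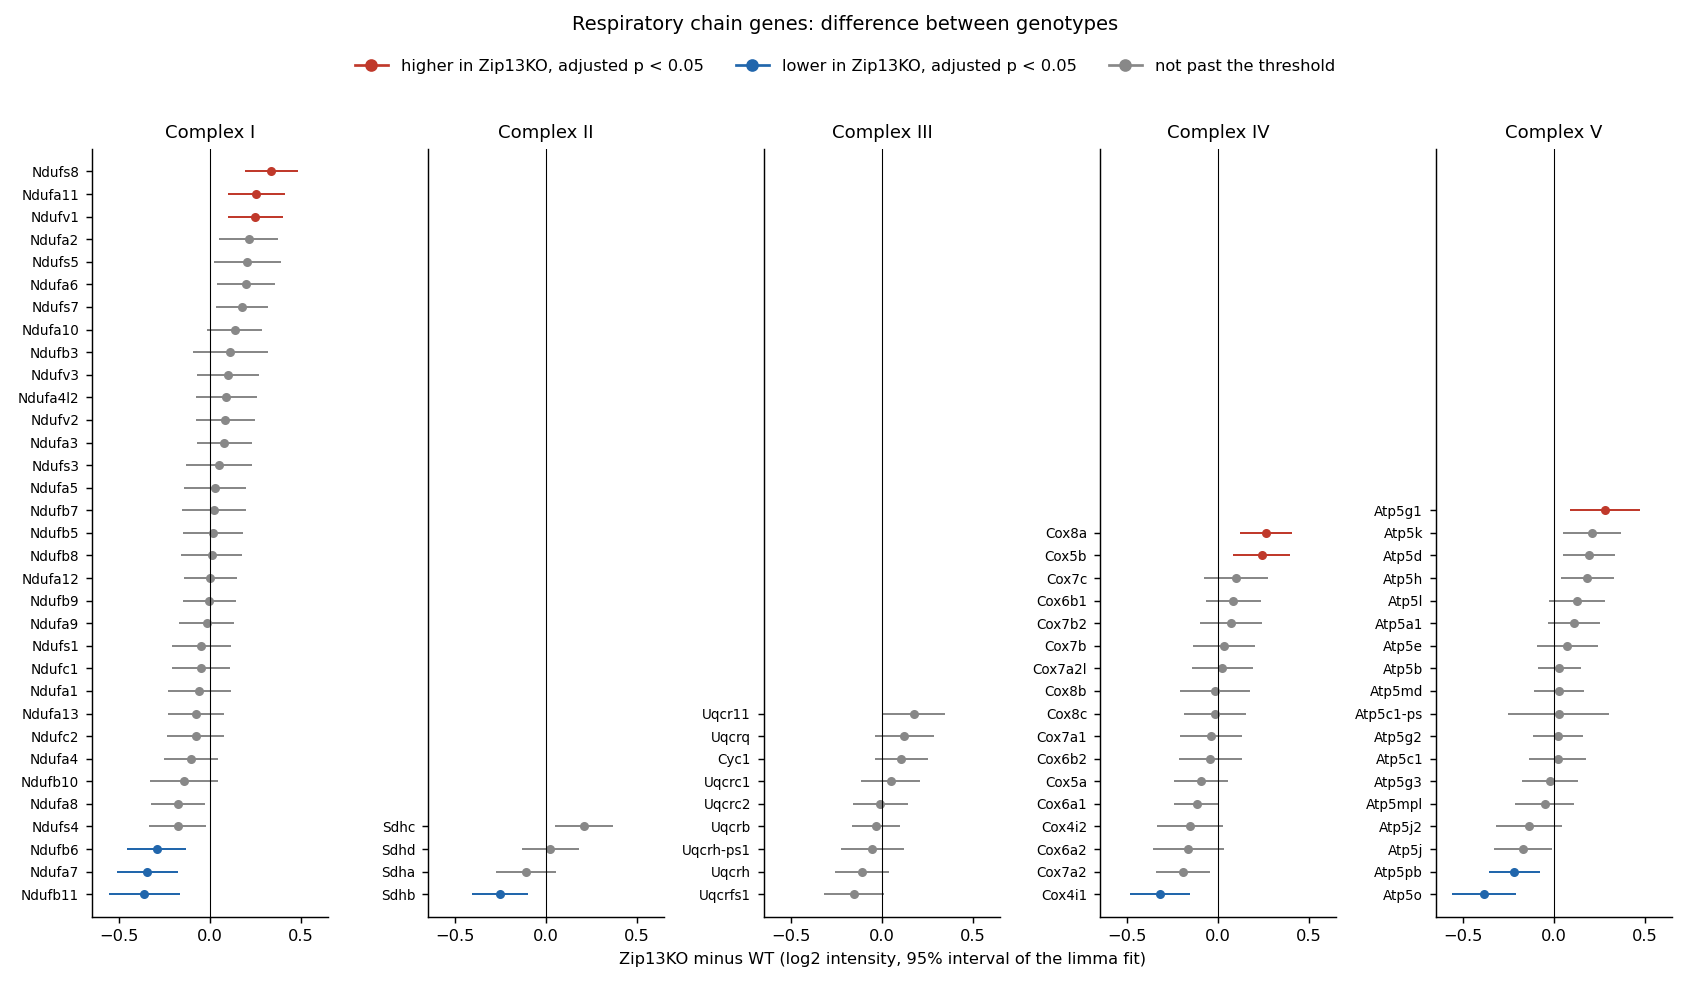
Difference between genotypes with its 95% interval for every member, by complex, sorted by size. Complexes I, IV and V hold members past the threshold on both sides of 0, complex II holds 1 below it and complex III holds none.

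Promoters of these genes are known for sites of NRF1, ETS factors such as GABPA, and YY1, through which mitochondrial genes are often co-regulated. Of the 81 members, 64 had a promoter in the RefSeq table of build GRCm38.p6, which gives 250 bases before to 50 after each listed start, and these windows were searched on both strands for 4 motifs. The NRF1 letters, GCGC, any base and then TGCGC, were found for 15 of 64 members (23.4%) and for 7.26% of 16918 genes. The YY1 letters AAGATGGC were found for 9 members (14.1%) and 3.65% of genes, the ETS letters CCGGAAGT for 5 (7.81%) and 5.64%, and the cyclic AMP response element TGACGTCA for 3 (4.69%) and 2.64%. At least 1 of the 4 motifs was found for 30 of the 64 members (46.9%) and for 17.1% of the 16918 genes. By call, that was 2 of the 6 members that rose, 2 of the 6 with a promoter that fell and 26 of the 52 others. Cox4i1 was the call with no promoter in the table. The 4 windows that held a match among the called members are shown, since together they carry each of the 4 motifs. Capitals mark the matched letters, which do not overlap each other. Ndufa11 (chr17:56717512-56717811, plus strand), which rose, held a cyclic AMP response element and then an NRF1 match, both before the start. Cox8a (chr19:7217567-7217866, minus strand), which rose, held 2 ETS matches, on the opposite strand. Atp5o (chr16:91931581-91931880, minus strand), which fell, held an NRF1 match just after the start, and Atp5pb (chr3:105959214-105959513, minus strand), which fell, held a YY1 match across it. A match describes letters only and shows no binding.
Ndufa11: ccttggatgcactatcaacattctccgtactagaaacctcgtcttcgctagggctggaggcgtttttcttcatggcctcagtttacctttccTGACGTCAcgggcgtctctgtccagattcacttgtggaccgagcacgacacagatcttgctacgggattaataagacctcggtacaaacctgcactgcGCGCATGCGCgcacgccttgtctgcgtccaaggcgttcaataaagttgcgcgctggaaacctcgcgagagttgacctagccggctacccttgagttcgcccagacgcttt
Cox8a: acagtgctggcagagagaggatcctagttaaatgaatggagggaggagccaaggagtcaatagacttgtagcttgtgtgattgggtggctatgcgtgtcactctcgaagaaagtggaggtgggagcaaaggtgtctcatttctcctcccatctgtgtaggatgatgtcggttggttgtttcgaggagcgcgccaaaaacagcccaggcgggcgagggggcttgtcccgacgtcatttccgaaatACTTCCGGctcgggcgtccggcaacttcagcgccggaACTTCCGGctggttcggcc
Atp5o: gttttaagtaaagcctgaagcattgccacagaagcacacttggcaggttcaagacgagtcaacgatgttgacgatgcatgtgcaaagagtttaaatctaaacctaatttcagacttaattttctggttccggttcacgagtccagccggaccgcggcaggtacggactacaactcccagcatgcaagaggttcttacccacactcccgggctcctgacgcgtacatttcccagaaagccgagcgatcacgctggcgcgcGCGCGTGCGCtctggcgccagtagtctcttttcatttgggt
Atp5pb: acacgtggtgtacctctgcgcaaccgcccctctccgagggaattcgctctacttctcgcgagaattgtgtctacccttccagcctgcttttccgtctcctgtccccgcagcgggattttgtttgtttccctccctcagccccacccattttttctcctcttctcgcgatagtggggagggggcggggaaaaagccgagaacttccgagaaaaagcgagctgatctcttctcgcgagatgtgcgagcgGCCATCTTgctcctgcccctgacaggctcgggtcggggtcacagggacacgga

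Complex I, which oxidises NADH and passes its electrons to ubiquinone, had 3 members higher and 3 lower of 33. This 18.2% stands against 17.1% of all genes and 26.1% of those brighter than the array median, as most complex I members were. Of the 33 differences, 19 were above 0. Of the 6 catalytic core subunits measured, 2 rose and none fell (33.3%, against 26.1% of genes brighter than the array median). Ndufs8, the iron-sulphur subunit beside the ubiquinone site, read 10.30 and 10.30 on the Zip13KO arrays, against 9.99 and 9.94 on the WT arrays. Both Zip13KO arrays lay above both WT arrays, and the difference of 0.34 (SE 0.07, limma adjusted p = 0.00123) amounts to 26.3% more signal. Ndufv1, which binds NADH and its flavin, read 9.74 and 9.71 in Zip13KO and 9.52 and 9.43 in WT, a difference of 0.25 (SE 0.07, adjusted p = 0.0183). The groups did not overlap. Ndufs8 and Ndufv1 lie on chromosome 19 with 7 measured genes between them, of which 1 rose and none fell. The other core subunits did not pass: Ndufs7, which holds the last iron-sulphur cluster of the chain, was at 0.17 (adjusted p = 0.0796), Ndufv2 at 0.08, Ndufs3 at 0.05 and Ndufs1, the largest of them, at -0.05. On the rows used, none of the 6 core subunits had an unadjusted p under 0.05 in the downward direction. A dimmer row that names both Ndufs1 and Ino80dos, left out of the member list, was at -0.24. It read 6.47 and 6.32 in Zip13KO, against 6.63 and 6.64 in WT (adjusted p = 0.201 in the limma fit over all rows).

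Accessory subunits surround that core and serve its assembly and stability. Of 27 in this group 1 rose and 3 fell (14.8%, against 17.1% of all genes and 26.1% of those brighter than the array median). Ndufa11, in the membrane arm, read 9.59 and 9.48 in Zip13KO, against 9.28 and 9.29 in WT (0.25, SE 0.07, adjusted p = 0.019). Ndufa7, in the peripheral arm that faces the matrix, fell by 0.34 (SE 0.08, adjusted p = 0.00338), with 8.53 and 8.41 in Zip13KO and 8.79 and 8.85 in WT. Neither pair of groups overlapped. Of the 8 Ndufb genes, all of the membrane arm, 2 fell and none rose (25.0%, against 26.1% of genes brighter than the array median). None of the 8 had an unadjusted p under 0.05 upward in limma. Ndufb11 read 6.93 and 6.79 in Zip13KO, against 7.33 and 7.12 in WT (-0.36, SE 0.09, adjusted p = 0.00762). Ndufb6 read 9.03 and 8.92 in Zip13KO, against 9.28 and 9.25 in WT (-0.29, SE 0.07, adjusted p = 0.00804). The lower WT array of Ndufb11 lay 0.19 above the higher Zip13KO array, and the other 6 Ndufb genes overlapped between groups, from -0.14 for Ndufb10 to 0.11 for Ndufb3. Accessory subunits close to the threshold were Ndufa2 (0.21, adjusted p = 0.0597) and Ndufa6 (0.20, adjusted p = 0.0735), both of the peripheral arm. Ndufa4, which carries a complex I symbol but is known as a subunit of complex IV, was at -0.10, and its paralogue Ndufa4l2, known as a hypoxia-induced gene, was below the array median and at 0.09.

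Of the 6 complex I calls, 4 were lost when single arrays were left out, some with little change in the difference. Without WT replicate 1, Ndufa11 (0.25, adjusted p = 0.0909), Ndufb11 (-0.26, adjusted p = 0.11) and Ndufb6 (-0.28, adjusted p = 0.0554) no longer passed. Without WT replicate 2, Ndufa11 (0.26, adjusted p = 0.0716) and Ndufv1 (0.21, adjusted p = 0.179) did not pass. Leaving out Zip13KO replicate 1 took away the same pair, Ndufa11 (0.20, adjusted p = 0.147) and Ndufv1 (0.23, adjusted p = 0.0572), and leaving out Zip13KO replicate 2 took away Ndufb6 (-0.24, adjusted p = 0.0542). A second and dimmer row of Ndufa11, at 6.86 and 6.84 in Zip13KO and 6.80 and 6.78 in WT, differed by 0.06, and the mean of its rows was 0.16 (adjusted p = 0.196).

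**Figure D3:**
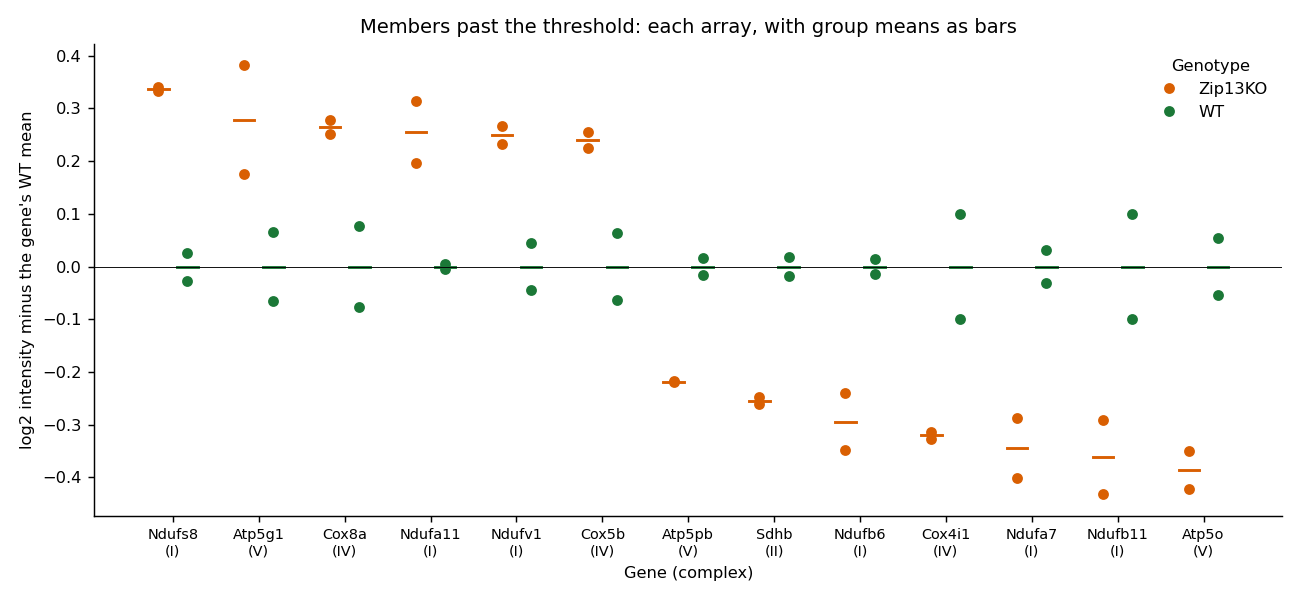
Each array's log2 intensity minus the gene's WT mean for the 13 members past the threshold, Zip13KO in orange on the left of each gene and WT in green on its right, with bars at group means. The 2 Zip13KO points lie on one side of the 2 WT points for all 13 genes, and Zip13KO means sit between -0.39 and 0.34.

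Complex II, succinate dehydrogenase, had 1 of its 4 subunits past the threshold, beside 17.1% of all genes and 26.1% of those brighter than the array median. Sdhb, the iron-sulphur subunit, read 9.27 and 9.29 in Zip13KO, against 9.55 and 9.52 in WT, so that it fell by 0.25 (SE 0.07, adjusted p = 0.0154). Sdhc, a membrane anchor, read 10.011 and 10.002 in Zip13KO, against 9.88 and 9.71 in WT, a difference in the opposite direction that did not pass (0.21, adjusted p = 0.0602). The groups did not overlap for either gene. Sdha, the flavoprotein that oxidises succinate, was at -0.11 and Sdhd, the other anchor, at 0.02, and both overlapped between groups. Sdhb was at -0.24 without WT replicate 1 (adjusted p = 0.112) and at -0.27 without WT replicate 2 (adjusted p = 0.0533), neither of which passed, whereas Sdhc passed without WT replicate 1 (0.29, adjusted p = 0.0278) and Sdha without Zip13KO replicate 2 (-0.23, adjusted p = 0.0245).

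Complex III, which moves electrons from ubiquinol to cytochrome c, had no member past the threshold in limma among 9, and 1 with an unadjusted p under 0.05. That was Uqcr11, a small accessory subunit, with 8.32 and 8.23 in Zip13KO and 8.06 and 8.14 in WT (0.18, 95% interval 0.01 to 0.34, adjusted p = 0.158). Uqcrfs1, the Rieske iron-sulphur protein, read 8.70 and 8.76 in Zip13KO, against 8.83 and 8.94 in WT (-0.15, 95% interval -0.31 to 0.01, adjusted p = 0.213). Cyc1, cytochrome c1, was at 0.11, and the core proteins Uqcrc1 and Uqcrc2 were at 0.05 and -0.01. Over the complex the 95% intervals ran from -0.31 to 0.34. The pseudogene Uqcrh-ps1 was at -0.05 and Uqcrh, the hinge protein that meets cytochrome c1, at -0.11, and sequence shared between such copies can mix their signal.

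Complex IV, cytochrome c oxidase, had 2 members higher and 1 lower of 17 (17.6%). Over all genes 17.1% passed, and 26.1% of those brighter than the array median did. Cox4i1, the common form of subunit 4 and a site of regulation by ATP, read 9.83 and 9.85 in Zip13KO, against 10.26 and 10.06 in WT, and fell by 0.32 (SE 0.07, adjusted p = 0.00496). Cox8a, the common form of a small membrane subunit, read 11.55 and 11.52 in Zip13KO, against 11.35 and 11.19 in WT, and rose by 0.26 (SE 0.06, adjusted p = 0.00691). Cox5b, the subunit that carries a structural zinc ion, read 9.88 and 9.91 in Zip13KO, against 9.59 and 9.72 in WT, and rose by 0.24 (SE 0.07, adjusted p = 0.0253). In each of these genes the groups were apart, though the 2 WT arrays of Cox4i1 differed from each other by 0.20. Without WT replicate 1 Cox4i1 was at -0.22 (adjusted p = 0.134) and Cox5b at 0.18 (adjusted p = 0.285). Without WT replicate 2 Cox8a was at 0.19 (adjusted p = 0.163), and without Zip13KO replicate 2 Cox5b was at 0.22 (adjusted p = 0.0596). The second row of Cox5b, which was dimmer than the array median at 6.25 and 6.25 in Zip13KO and 6.38 and 6.09 in WT, differed by 0.02, and the mean of its rows was 0.13 (adjusted p = 0.322).

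None of 8 isoforms with a common partner, the 7 tissue-restricted forms of complex IV and the paralogue Ndufa4l2, passed in limma, and none had an unadjusted p under 0.05. Cox4i2, the lung-type partner of Cox4i1, was at -0.15 (adjusted p = 0.27), with 7.84 and 7.74 in Zip13KO and 8.02 and 7.87 in WT. Cox6a2, the heart and muscle form, was at -0.16 (adjusted p = 0.283) beside -0.12 for the common Cox6a1 (adjusted p = 0.182). Cox7a1, the muscle form, was at -0.04 and its common partner Cox7a2 at -0.20 (adjusted p = 0.0583). The testis form Cox6b2 was at -0.04 and the common Cox6b1 at 0.08. Cox7b2, Cox8b and Cox8c, restricted to testis, muscle and testis, lay below the array median in both groups, at 0.07, -0.02 and -0.02, while the common Cox7b was at 0.03. Cox7a2l was at 0.02.

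Complex V, ATP synthase, had 1 member higher and 2 lower of 18. This share of 16.7% stands beside 17.1% of all genes and 26.1% of those brighter than the array median. The 2 that fell both belong to the peripheral stalk that holds the catalytic head still. Atp5o, the subunit that joins that stalk to the head, read 7.57 and 7.5 in Zip13KO, against 7.97 and 7.86 in WT. It fell by 0.39 (SE 0.08, adjusted p = 0.002), the largest difference of any member, and its groups lay 0.29 apart at their nearest arrays. Atp5pb, the long membrane-anchored subunit b of the same stalk, read 10.22 and 10.22 in Zip13KO, against 10.46 and 10.43 in WT, and fell by 0.22 (SE 0.06, adjusted p = 0.0249). The other stalk subunits did not pass and differed from each other in direction, with Atp5j (coupling factor 6) at -0.17 (adjusted p = 0.143) and Atp5h (subunit d) at 0.18 (adjusted p = 0.0778). Atp5pb was at -0.20 with WT replicate 1 left out (adjusted p = 0.169) and at -0.24 with WT replicate 2 left out (adjusted p = 0.0872), and passed in neither.

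Proton flow turns the c ring of the synthase, whose mature subunit is made from 3 genes that differ in their import sequences. Atp5g1 read 7.33 and 7.12 in Zip13KO, against 6.88 and 7.01 in WT, and rose by 0.28 (SE 0.09, adjusted p = 0.0385). Its groups were 0.11 apart at their nearest arrays, and it was at 0.18 with Zip13KO replicate 1 left out (adjusted p = 0.33) and at 0.21 with WT replicate 1 left out (adjusted p = 0.242), passing in neither. Atp5g2 was at 0.02 and Atp5g3 at -0.02, and both overlapped between groups. All 5 catalytic head and central stalk subunits had differences above 0, as did 12 of 18 complex V members and 10856 of 22180 genes. None of these 5 subunits passed in limma, with 1 at an unadjusted p under 0.05. They ran from 0.02 for Atp5c1 to 0.19 for Atp5d (adjusted p = 0.0534), with Atp5a1 at 0.11 and Atp5b, the catalytic subunit, at 0.03. Of the small membrane subunits, Atp5k was nearest to the threshold (0.21, adjusted p = 0.0585) and Atp5j2, at -0.14, was below the array median. Atpif1, the peptide that blocks ATP hydrolysis by the synthase and which the symbol patterns do not take in, fell by 0.31 (SE 0.07, adjusted p = 0.00291), with 10.69 and 10.54 in Zip13KO and 10.96 and 10.90 in WT.

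The subunits encoded by mitochondrial DNA, partners of these proteins in complexes I, III and IV, rose on the same arrays. All 10 measured with a symbol of their own passed, from 0.21 for CYTB to 0.48 for ND6. Over all genes 7.00% rose, as did 1467 of the 13819 genes brighter than the array median. The median of the 10 was 0.30, beside 0.02 for the nuclear-encoded members. Without WT replicate 1, 6 of the 10 passed, and 4 passed in the fit over all rows. ND4L read 12.55 and 12.59 in Zip13KO, against 12.09 and 12.18 in WT (0.44, adjusted p = 1.60e-05), and COX3 read 12.35 and 12.58 in Zip13KO, against 12.06 and 11.94 in WT (0.46, adjusted p = 9.94e-05). ND5 was at 0.35 (adjusted p = 2.27e-04). The difference between the mitochondrial and the nuclear genes was not itself tested.

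Of 25 measured genes that copy, transcribe and process mitochondrial DNA and its RNA, 5 rose and none fell, and 2 had an unadjusted p under 0.05 in the downward direction. That is 20% called, beside 17.1% of all genes in either direction and 26.1% of the genes brighter than the array median. Upward calls alone made up 7.00% of all genes, and 1467 of the 13819 brighter genes. Twnk, the helicase of mitochondrial DNA, rose by 0.47 (adjusted p = 2.61e-04), Pnpt1, an RNA-degrading enzyme, by 0.31, Polrmt, the mitochondrial RNA polymerase, by 0.30 and Lrpprc, which stabilises mitochondrial messengers, by 0.28. Pnpt1 (0.22, adjusted p = 0.0832) and Lrpprc (0.18, adjusted p = 0.182) did not pass without Zip13KO replicate 2, nor Lrpprc without WT replicate 2 (0.27, adjusted p = 0.0663). The count was 3 without WT replicate 2, 3 without Zip13KO replicate 2 and 1 in the fit over all rows. Among 21 regulators of mitochondrial biogenesis 1 rose and 3 fell, a share of 19.0% near the 17.1% of all genes. Gabpa, the DNA-binding subunit of the ETS factor above, fell by 0.35 (adjusted p = 0.00167), with 9.61 and 9.73 in Zip13KO and 9.99 and 10.04 in WT. Prkaa2, a catalytic subunit of AMP-activated kinase, fell by 0.57 (adjusted p = 7.89e-05), as did Nrip1, a co-repressor (-0.28, adjusted p = 0.0183), while the co-activator Ppargc1b rose by 0.29 (adjusted p = 0.0203). Nrip1 did not pass without Zip13KO replicate 1 (-0.24, adjusted p = 0.101) or WT replicate 2 (-0.24, adjusted p = 0.146), nor Ppargc1b without Zip13KO replicate 2 (0.27, adjusted p = 0.064) or WT replicate 2 (0.20, adjusted p = 0.251). Nrf1 was at -0.11 (adjusted p = 0.411) and Yy1 at -0.02 (adjusted p = 0.905).

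Assembly factors, which build the complexes and do not stay in them, changed in both directions, and the 4 named here differed by more than any member. Of 55 measured, 4 rose and 10 fell (25.5%), with a median of -0.03, and 53 of them were brighter than the array median, where 26.1% of all genes passed, so the share was near the background. Ndufaf3, which assembles complex I around the ubiquinone site, rose by 0.50 (adjusted p = 2.83e-04), with 7.83 and 7.66 in Zip13KO and 7.22 and 7.27 in WT. Ndufaf4, its partner in the same step, fell by 0.42 (adjusted p = 4.14e-04), with 8.89 and 8.84 in Zip13KO and 9.33 and 9.23 in WT. Timmdc1, which serves the membrane arm of complex I, fell by 0.49 (adjusted p = 8.96e-05) and Coa3, a complex IV factor, fell by 0.49 (adjusted p = 2.00e-04). In the fit over all rows 7 assembly factors passed.

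Neighbouring steps of mitochondrial metabolism also held calls of both signs. Over all genes 17.1% passed, and 26.1% of those brighter than the array median did. Of 24 genes of the citric acid cycle and pyruvate entry, all brighter than that median, 4 rose and 4 fell (33.3%). Pdk1, a kinase that inhibits pyruvate dehydrogenase, rose by 0.50 (adjusted p = 3.01e-04) and its relative Pdk4 fell by 0.47 (adjusted p = 4.14e-04). Idh3b, a subunit of isocitrate dehydrogenase, rose by 0.35, and Mpc1, of the mitochondrial pyruvate carrier, fell by 0.38. Electron carriers and ubiquinone synthesis had 2 lower and none higher of 21 in limma (9.52%), with 1 at an unadjusted p under 0.05 upward. Coq3, a methyltransferase of ubiquinone synthesis, fell by 0.63 (adjusted p = 1.02e-05), with 7.64 and 7.67 in Zip13KO and 8.25 and 8.33 in WT, and Coq10b, a ubiquinone-binding protein, fell by 0.29, though not past the threshold without WT replicate 1 (-0.26, adjusted p = 0.0799). Cycs, cytochrome c itself, was at -0.02. Of 30 import genes, all brighter than the array median, 2 rose and 5 fell (23.3%), a share near the background. Oxa1l, which inserts proteins into the inner membrane, rose by 0.40. The protease subunit Immp1l fell by 0.49, and the receptors Tomm70a and Tomm20 fell by 0.40 and by 0.35. Of 11 adenine nucleotide carriers, uncoupling proteins and related channels, Vdac3 passed and fell by 0.23 (adjusted p = 0.00732), though not without WT replicate 2 (adjusted p = 0.0676).

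**Figure D4:**
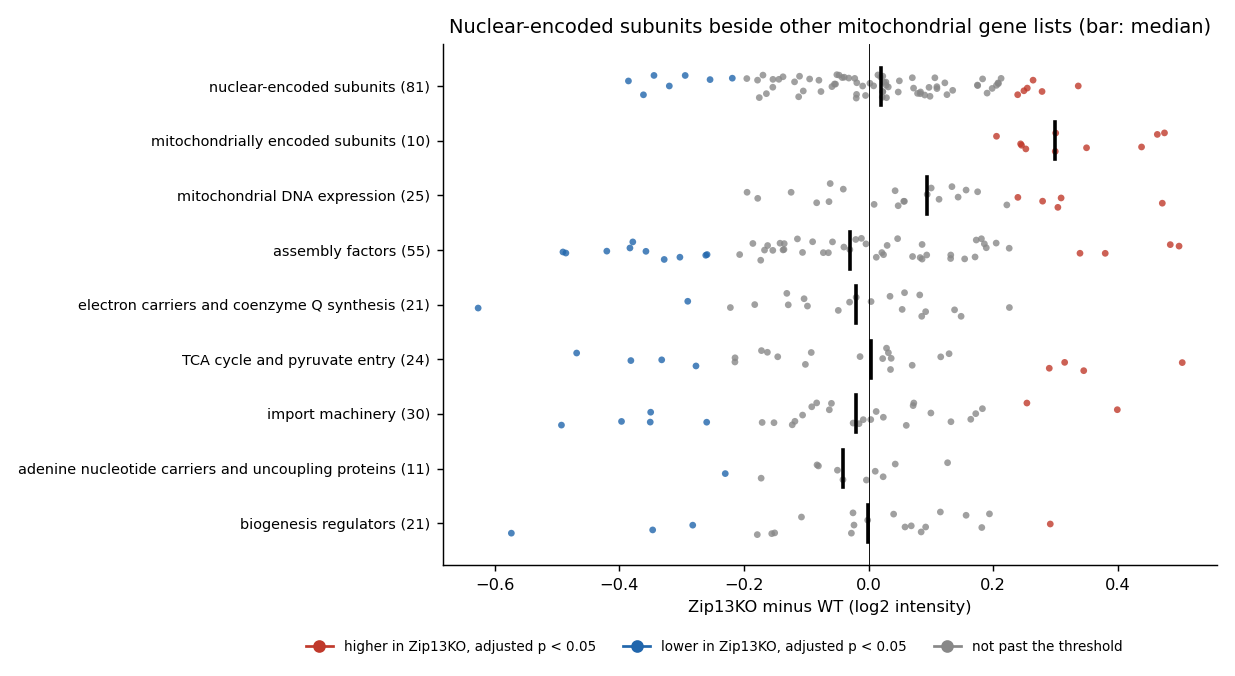
Difference between genotypes (Zip13KO minus WT, log2 intensity) for each gene of 9 mitochondrial lists, with the number of measured genes in brackets and a black bar at the median. The 81 nuclear-encoded subunits centre on 0.02 and the 10 mitochondrially encoded ones on 0.30.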

How the data were processed

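Total RNA of mouse fibroblasts had been hybridised to Affymetrix Mouse Gene arrays, 2 of Zip13KO and 2 of WT. The deposited table holds linear intensity values from 21.8 to 10826. The submitters' processing notes name Affymetrix Expression Console and RMA, without versions, a method that removes background, equalises the arrays' distributions and combines probes, so that a shift common to most genes is removed. RMA returns log2 values, so the authors' intensity seems to have been converted back, and log2 was taken again here with no pseudocount and no filter. The summary level is not given in the sources used here.

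Gene names came from the platform annotation: 23521 of 41345 rows had 1 symbol, and the row with the highest mean was kept for 1082 genes with several, 9 members among them. A further 10 rows that name several genes matched the patterns and were left out of the member list. Each of 22180 genes was fitted with limma 3.58.1 in R 4.3.3 (lmFit, eBayes with an intensity trend, two-sided, 2 residual and 15.1 prior degrees of freedom, adjusted over all genes). Each difference is the Zip13KO mean minus the WT mean, on the log2 scale. The fit was tested on simulated data, and plots used matplotlib 3.10.9 in Python 3.11.15. The number of arrays limits the precision.

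Named genes were, per complex and direction, up to 8 members past the threshold; the 2 with the smallest p where fewer than 2 passed; tissue isoforms with their partners; Atpif1, Slc39a13; and up to 4 called genes per context list. Members named beyond these were chosen after their values were seen, as was the division of complexes into core, accessory, stalk and ring. The members and lists were chosen with earlier results of these data known. Alternatives were the replicate block, a filter on dim rows (brighter than the array median on 2 or more arrays), quantile normalization, centring of arrays, 2 other variance priors, averaging a gene's rows, a fit over all rows, structural subunits only and each array left out. A crossed replicate block was added after the data were seen. Sequences and gene order are from RefSeq, GRCm38.p6, used for names and neighbours beside the promoters.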

Additional observations from a re-analysis of the deposited data

Results flagged for a closer look

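Rows that name several genes were not part of the member list, and among the 10 that matched the symbol patterns 1 passed the threshold. This row names Ndufs6 and its copy Ndufs6b, and Ndufs6 is known as a zinc-binding accessory subunit of complex I. It read 9.51 and 9.47 on the Zip13KO arrays, against 8.99 and 8.99 on the WT arrays, a difference of 0.50 (SE 0.06, limma adjusted p = 0.0109 in the fit over all rows) that exceeds that of every member. A second row with the same 2 names read 9.18 and 9.08 in Zip13KO, against 9.01 and 9.04 in WT (0.11, adjusted p = 0.545).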

How the results depend on the processing

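Ndufs8 and Atp5o passed in each of 13 alternative fits, and the other 11 calls were lost in at least 1, with no sign turned in any of them. Against 6 members higher and 7 lower as reported, counts were 1 and 1 in a fit and adjustment over all rows (669 higher and 1137 lower over all genes), 11 higher after a filter on low values and 13 higher after quantile normalization. Under the replicate block 3 rose and 5 fell, and none passed in complex II. The labels do not say that equal numbers mark a shared animal or day, and the equal-numbered arrays tended to deviate from their group means in opposite directions (r = -0.158 over genes). With the numbers crossed, 14 rose and 11 fell, with 11 calls in complex I, 2 in complex II, 1 in complex III and 7 in complex V. By complex, the fit over all rows left 1 call in complex I, 0 in complex II, 0 in complex IV and 1 in complex V. The filter gave 2 in complex II and 5 in complex V, and quantile normalization gave 2 and 6 there and moved the median of complex III to 0.011. With 1 array left out, members higher ranged from 3 to 8, members lower from 2 to 7 and their median from -0.014 to 0.026. Calls then ranged from 0 to 2 in complex II, from 1 to 3 in complex IV and from 1 to 5 in complex V, and the median of complex III from -0.036 to 0.017. The fewest lower calls came without WT replicate 1 and the fewest higher ones without WT replicate 2. The lone array of a group is then assumed to vary like the other group. The cause of these changes was not tested. Counting structural subunits alone changed neither count.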

Other observations

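Uqcr11, Ndufs7 and Atp5d, of 3 different complexes, lie near each other on chromosome 10, with 5 measured genes between Ndufs7 and Atp5d and 11 between Ndufs7 and Uqcr11. Their differences were 0.18, 0.17 and 0.19. None of these passed, and both Zip13KO arrays lay above both WT arrays for each, as for 24.1% of all genes. Of the 17 measured genes between Uqcr11 and Atp5d, Ndufs7 included, 3 rose and none fell. Over all genes 17.1% passed, with 7.00% higher and 10.1% lower, and this stretch was picked after the values were seen.

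For 9 members the table held a second, dimmer row. Both rows had the same sign in 7 of them. The second row of Ndufa8 was at -0.26 beside -0.18 for the row used, that of Atp5d at 0.21 beside 0.19, and that of Atp5h, at 6.64 and 6.61 in Zip13KO and 6.68 and 6.45 in WT and so near the array median, at 0.06 beside 0.18. For Ndufa12 the rows were at -0.14 and 0.00, and for Cox7b at -0.11 and 0.03. A row that names Ndufb4 and its copies Ndufb4b and Ndufb4c read 8.82 and 8.68 in Zip13KO, against 8.94 and 9.13 in WT, a difference of -0.29 that did not pass in the fit over all rows (adjusted p = 0.173).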
